A study of Mus musculus with 9 samples.

Results

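The genes of melanin synthesis and of melanocyte identity were followed in mouse back skin with imiquimod dermatitis, with and without mechanical stretch. The set held 10 genes, taken by gene symbol from the annotated features of an expression array with 19505 named genes. They are the pigment enzymes Dct, Tyrp1 and Tyr, the melanosome proteins Pmel and Mlana, the melanosomal transporters Oca2 and Slc45a2, the transcription factors Mitf and Sox10, and the melanocortin receptor Mc1r. Each was represented by 1 feature, and no other gene on the array shared its values.

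The stretch group (labelled IMQ+F) comprised 5 samples of C57BL/6J back skin held elongated by 10 mm with a glued plastic traction device. The no stretch group (IMQ+N) comprised 4 samples from mice of the same strain. The mice were 8 weeks old, their back hair had been removed by a protocol given in the same words for every sample, and all 9 samples received 5% imiquimod cream daily for 7 days, so the groups share the imiquimod dermatitis and no skin without imiquimod was analysed here. Whether the device was also glued to non-stretched skin is not stated in the labels, so effects of traction and of the device cannot be told apart. Nor do they name the mouse behind each sample, and p-values therefore refer to sample-to-sample spread, part of which may be technical. RNA from whole skin was labelled and hybridised to Affymetrix arrays, and values are log2 expression levels. The number of arrays limits the precision, with a median standard error of 0.21 for a log2 change over all genes. Array medians lay between 5.96 and 6.06. The array least like the rest was no stretch replicate 3, with a median correlation of 0.975 across genes against 0.980 to 0.987 for the others. Stretch replicate 1 and no stretch replicate 3 had the lowest array weights, 0.55 and 0.58.

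Melanin is made in melanosomes, the pigment organelles of melanocytes. Tyrosinase (Tyr) starts the pathway by oxidising tyrosine, dopachrome tautomerase (Dct) and the tyrosinase-related protein Tyrp1 act on later intermediates of black eumelanin, and Pmel forms the fibrils on which pigment is deposited. The melanocortin receptor Mc1r raises cyclic AMP, and the transcription factor Mitf, itself activated with Sox10, switches on the pigment genes. In the haired back skin of mice, melanocytes and their stem cells reside mainly in hair follicles, and Dct is expressed from the precursor stage on. Whole skin yields an average over all its cells, so fewer melanocytes and less RNA per melanocyte cannot be told apart.

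Promoter sequence is shown because Mitf is known to bind the M-box, an E-box with the core TCATGTG, in front of pigment enzyme genes, and the enzymes can then be compared by both sequence and expression. RefSeq windows (build GRCm38.p6, 250 bases before to 50 bases after each start site) were found for 6 of the 10 genes, with 3 start sites for Mitf. On either strand, the 7 bases TCATGTG occurred in 4 of these 6 genes, Dct, Tyrp1, Tyr and Mc1r, against 3.77% of all 32851 windows in the table. The longer TCATGTGCT, which contains it, occurred in 3 of the 6, Dct, Tyrp1 and Tyr, against 0.408% of all windows. CATGTG, the 6 bases inside both, was found in 5 of 6 genes, Oca2 in addition, against 14.2% of windows, and the related E-box CACGTG in 0 of 6, against 7.15%. No window of Mitf held any of them. The matches are listed 5′ to 3′ on each gene's strand with 12 bases on either side and the 7 matching bases in capitals; positions count back from the start site.
Dct, −151 to −145, within chr14:118052379-118052409, minus strand: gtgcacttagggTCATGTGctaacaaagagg
Dct, −232 to −226, within chr14:118052460-118052490, minus strand, motif in reverse orientation: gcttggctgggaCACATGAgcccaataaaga
Tyrp1, −47 to −41, within chr4:80834154-80834184, plus strand: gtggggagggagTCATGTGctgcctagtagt
Tyr, −22 to −16, within chr7:87493516-87493546, minus strand: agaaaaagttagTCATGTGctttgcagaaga
Mc1r, −52 to −46, within chr8:123407018-123407048, plus strand: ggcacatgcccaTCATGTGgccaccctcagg

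Dct is the only one of these genes with a pair of matches, in opposite orientations. They are shown in the 250 bases upstream of its start site (chr14:118052247-118052496, minus strand), since Dct had the largest change of the 10 genes.
Dct upstream region: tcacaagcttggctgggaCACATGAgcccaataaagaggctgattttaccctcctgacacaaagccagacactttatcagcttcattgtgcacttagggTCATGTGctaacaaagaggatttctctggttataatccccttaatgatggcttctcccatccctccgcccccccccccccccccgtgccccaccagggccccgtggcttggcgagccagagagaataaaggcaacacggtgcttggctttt

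Stretched skin had lower mean levels of 9 of the 10 genes, the exception being Mitf, where 50.4% of all genes were lower, and Dct and Pmel passed the test. The median log2 change of the 10 was -0.44, against -0.0034 for all genes. The 2 calls were both lower, where 0.164% of all 19505 genes were called lower and 0.246% in either direction in limma's moderated test, with p-values adjusted over all genes (Benjamini-Hochberg) and a threshold of 0.05. Without correction, 6 of the 10 were lower at p under 0.05 and 0 higher, where 6.07% of all genes were lower and 6.92% higher at that level. The stretch and no stretch arrays did not overlap for 3 of the 10 genes, Dct, Pmel and Tyrp1, each lower with stretch, where 2.15% of all genes were so separated and lower. The 10 genes were chosen with earlier results of these data known, so the shares over all genes are background and not a test of the set.

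**Figure D1:**
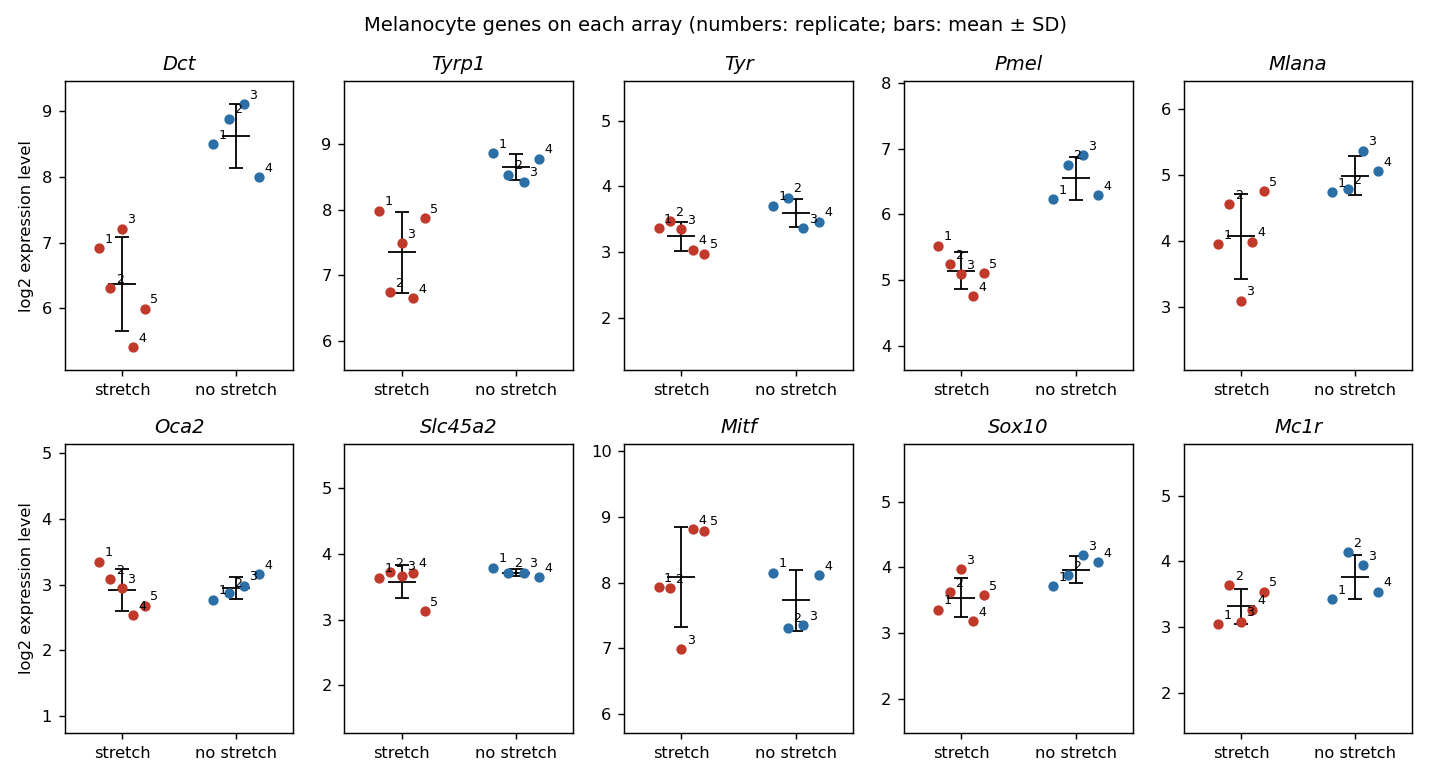
Log2 expression level (vertical axes, each panel with its own range) of the 10 genes in stretched and non-stretched skin; points are arrays numbered by replicate, and bars are mean ± SD. Dct, Tyrp1 and Pmel show no overlap between the groups, whereas Mitf spans from 6.98 to 8.81 in stretched skin and covers the whole no stretch range.

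Among the enzymes, Dct changed most. It was at 6.92, 6.31, 7.21, 5.41 and 6.00 in stretched skin (replicates 1 to 5), against 8.50, 8.88, 9.11 and 8.00 in non-stretched skin (replicates 1 to 4). The highest stretched array, replicate 3, lay 0.78 below the lowest non-stretched array, replicate 4. Stretched skin averaged 6.37 ± 0.72 (SD, n = 5), against 8.62 ± 0.49 (SD, n = 4) in non-stretched skin. The log2 change was -2.25 (SE 0.35, 95% confidence interval -3.02 to -1.48, limma adjusted p = 0.031), or 4.76-fold lower. Its change was the 23rd most negative of the 19505 genes. The spread of Dct within groups was also large, with a residual SD of 0.63 that exceeded that of 92.5% of genes.

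Tyrp1, the related enzyme that also stabilises tyrosinase, was at 7.98, 6.74, 7.48, 6.65 and 7.87 in stretched skin, against 8.86, 8.53, 8.42 and 8.77 in non-stretched skin. Replicates 2 and 4 of the stretch group were the lowest arrays, and the non-stretched arrays lay close together. The log2 change was -1.30 (95% confidence interval -1.93 to -0.68), 2.46-fold lower, and missed the threshold (limma adjusted p = 0.084). Tyr, the rate-limiting enzyme, differed by -0.35 on the log2 scale (95% confidence interval -0.73 to 0.02, limma adjusted p = 0.42). It ranged from 2.98 to 3.47 in stretched skin and from 3.37 to 3.83 in non-stretched skin. All 5 stretched arrays lay below the no stretch mean of Tyr, but stretch replicate 2 exceeded no stretch replicate 3, so the groups overlapped. The values of Tyr averaged at percentile 17.0 of all genes on the array, a range in which RMA commonly compresses log2 values towards a floor, so that differences can be understated.

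Of the melanosome proteins, Pmel fell with the smallest p of the set. It was at 5.52, 5.24, 5.09, 4.76 and 5.10 in stretched skin, against 6.23, 6.76, 6.90 and 6.30 in non-stretched skin. The highest stretched array, replicate 1, lay 0.71 below the lowest non-stretched array, replicate 1, a gap similar to the span within stretched skin (0.77) and within non-stretched skin (0.67). The log2 change was -1.40 (SE 0.20, 95% confidence interval -1.85 to -0.95, limma adjusted p = 0.026), or 2.64-fold lower. Mlana, a melanosome protein known as a T cell antigen of melanocytes, was at 3.95, 4.56, 3.09, 3.99 and 4.75 in stretched skin, against 4.74, 4.79, 5.37 and 5.06 in non-stretched skin. Only stretch replicate 5 reached into the range of non-stretched skin, by 0.02, and stretch replicate 3 was the lowest. Its log2 change of -0.92 (95% confidence interval -1.59 to -0.26) did not pass over all genes (limma adjusted p = 0.22).

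The 2 calls depended on which arrays entered. When each array was left out in turn, the log2 change of Dct lay between -2.46 and -2.01 and that of Pmel between -1.51 and -1.28, and neither changed sign. Dct passed in 4 of these 9 fits (those lacking stretch replicate 1, 3 or 4, or no stretch replicate 4) and Pmel in 3 (those lacking stretch replicate 1 or 3, or no stretch replicate 4). Neither passed in the 5 fits that lacked replicate 2 or 5 of the stretch group or replicate 1, 2 or 3 of the no stretch group, with limma adjusted p between 0.075 and 0.12 for Dct and between 0.065 and 0.083 for Pmel. Without stretch replicate 4, the array of lowest Dct, Tyrp1 and Pmel, the adjusted p was 0.04997 for Dct and 0.052 for Pmel. The number of genes called over the whole array moved between 2 and 195 in the same fits. Without the arrays of lowest weight, no stretch replicate 3 and stretch replicate 1 together, the log2 changes were -2.23 for Dct and -1.38 for Pmel (limma adjusted p = 0.075 and 0.054).

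**Figure D2:**
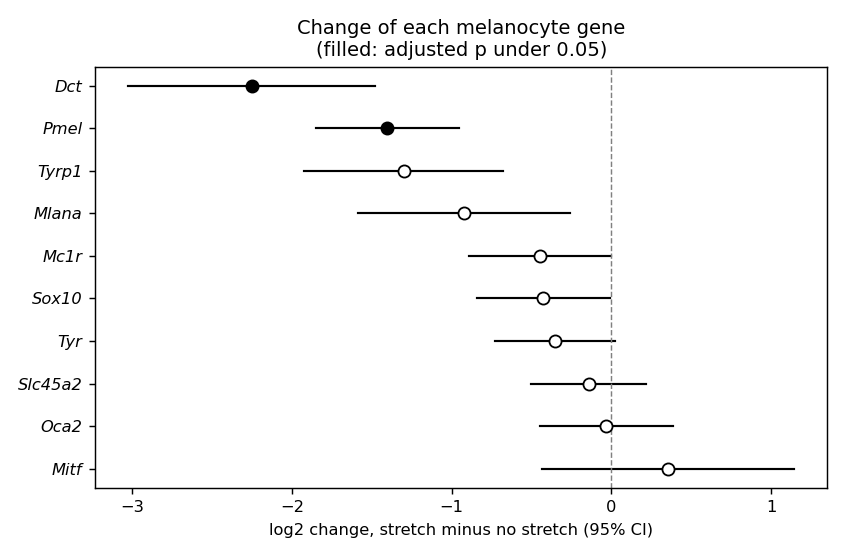
Log2 change, stretch minus no stretch, of each gene (circles) with its 95% confidence interval from limma (lines); filled circles have an adjusted p under 0.05. Dct (-2.25) and Pmel (-1.40) are filled, and the interval of Mitf, from -0.44 to 1.15, spans 0.

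The transporters and the receptor showed small differences at low array values. Oca2, which adjusts the pH of the melanosome, differed by -0.03 on the log2 scale (95% confidence interval -0.45 to 0.39), which turned to 0.04 after centring each array on its median. Its levels ranged from 2.54 to 3.35 in stretched skin, against 2.77 to 3.16 in non-stretched skin, so the no stretch range lay within the stretch range. Slc45a2, a further transporter needed for normal pigmentation, had a log2 change of -0.14 (-0.50 to 0.22), and was at 3.13 in stretch replicate 5 but between 3.64 and 3.72 on the other stretched arrays. Mc1r had a log2 change of -0.45 (-0.89 to -0.0034, limma adjusted p = 0.38). It was between 3.04 and 3.64 in stretched skin and between 3.43 and 4.14 in non-stretched skin, with all 5 stretched arrays below the no stretch mean. These 3 genes, Tyr and Sox10 averaged at percentiles 7.4 to 23.1 of all genes, so 5 of the 10 defining genes of the set had values below percentile 25; detection calls were not used here, and whether these features lay above background was not assessed. The genes above that range were Dct, Tyrp1, Pmel, Mlana and Mitf, of which Mitf is also known in mast cells and macrophages.

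Of the transcription factors, Mitf was higher and Sox10 lower on average in stretched skin, and neither passed. Mitf was at 7.93, 7.92, 6.98, 8.81 and 8.79 in stretched skin, against 8.15, 7.31, 7.35 and 8.11 in non-stretched skin. Stretch replicates 4 and 5 were the highest arrays and stretch replicate 3 the lowest, so the groups overlapped fully. The log2 change was 0.35 (95% confidence interval -0.44 to 1.15, limma adjusted p = 0.72), and with a residual SD of 0.65 Mitf was more variable within groups than 93.2% of genes. Sox10, the neural crest factor of melanocytes and Schwann cells, had a log2 change of -0.43 (-0.84 to -0.0093, limma adjusted p = 0.37), with 4 of 5 stretched arrays below the lowest non-stretched array. Macrophage markers were higher on average (7 of 7 measured, 0 past limma's adjusted threshold, median log2 change 0.67). At an unadjusted p under 0.05, 3 were higher, where 6.92% of all genes were. The summed linear signal of the macrophage markers ranged from 85906 to 353119 in stretched skin and from 103445 to 261574 in non-stretched skin. The part of macrophages in the values of Mitf was not tested. Schwann cell markers, which include Sox10, were lower for 6 of 12 and higher for 6 of 12 (median log2 change -0.04, 0 past limma's adjusted threshold). At an unadjusted p under 0.05, 1 was lower, where 6.07% of all genes were, and it was Sox10 itself, a gene of the set. The summed linear signal of the Schwann cell markers was 2449 to 6058 in stretched skin and 4566 to 8547 in non-stretched skin. This sum mostly follows Pmp22, by far the highest gene of the list (mean 11.9 in stretched and 12.4 in non-stretched skin). It therefore says little about the other markers.

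Covariation was examined after the group means were removed, so that the difference between groups did not enter. Over the 45 pairs of the 10 genes, 22 correlations across the 9 arrays were positive and 23 negative, with a median Pearson's r of -0.0056. No pair passed after Benjamini-Hochberg adjustment over the 45 pairs (smallest adjusted p = 0.45). In a two-sided exact permutation test of arrays within groups, 2 pairs had an unadjusted p under 0.05, about the number that chance alone gives over 45 pairs. The strongest was between Dct and Mitf, which ran in opposite directions (r = -0.89, exact permutation p = 0.010; Spearman's rho = -0.83, exact permutation p = 0.018). It was -0.80 without the 2 arrays of most extreme Dct. Within the stretch group Dct was highest and Mitf lowest in replicate 3, and Dct was lowest and Mitf highest in replicate 4. The other pair was Dct and Pmel, which varied in the same direction (r = 0.72, exact permutation p = 0.035, adjusted p = 0.73; rho = 0.68, exact permutation p = 0.062) and kept r = 0.87 without the same 2 arrays. Dct and Tyrp1 had r = 0.34 and Dct and Tyr r = 0.48, neither with an unadjusted p under 0.05.

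**Figure D3:**
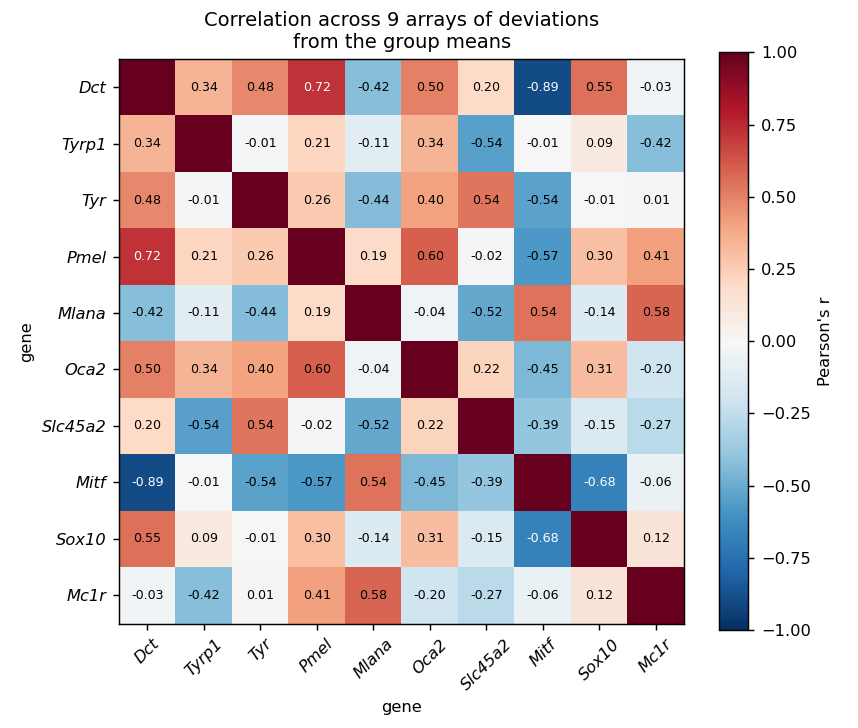
Pearson's r between each pair of the 10 genes (both axes) across 9 arrays, computed on deviations from the group means; red is positive and blue negative. Dct and Mitf have the most negative value (-0.89) and Dct and Pmel the most positive.

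**Figure D4:**
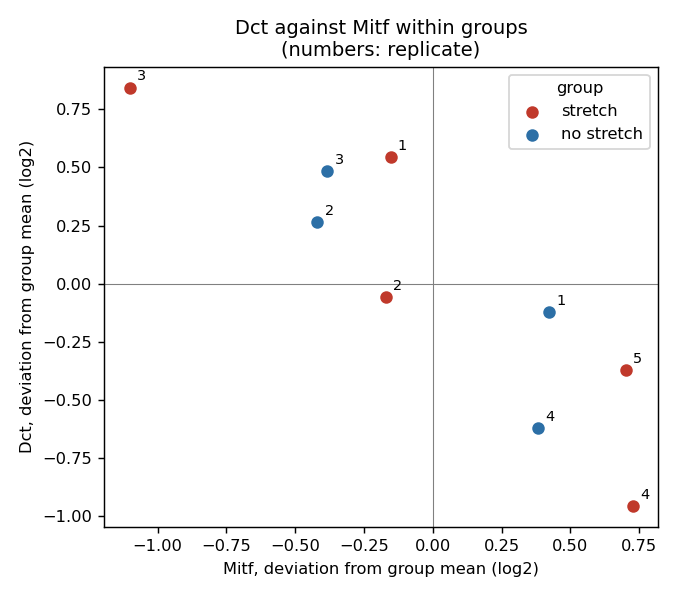
Deviation of Dct (vertical) from its group mean against that of Mitf (horizontal), in log2 units, for the 5 stretched and 4 non-stretched arrays, numbered by replicate. Arrays with Mitf above its group mean, stretch replicates 4 and 5 and no stretch replicates 1 and 4, have Dct below its own. In stretch replicate 2 both genes lie below their group means.

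The average profile of the 10 genes was between -0.53 and -0.16 in stretched skin, relative to each gene's mean over all arrays, and between 0.32 and 0.47 in non-stretched skin. Stretch replicate 4 was the lowest array and no stretch replicate 3 the highest. The genes outside the set with the most similar values over the 9 arrays were Timp2, an inhibitor of metalloproteinases (r = 0.973), Cd34, a surface antigen of follicle stem cells and dermal cells (0.972), Ccdc78 (0.968), Rnase6 (0.954) and Spink4 (0.954), all lower in stretched skin on average. Timp2 and Cd34 passed the test themselves, with log2 changes of -1.27 and -1.60 (limma adjusted p = 0.021 and 0.0046), Timp2 in 5 and Cd34 in all 9 of the fits that left out 1 array. Since the group difference enters this measure, likeness was also taken on deviations from the group means, where the nearest genes were Rflna and Vmn2r14 (both r = 0.964), Slc14a2, Cspp1, Champ1, Cep95, Yipf1, Abcb5, Slc9a5 and Mrpl48 (0.949 to 0.933). None of these 10 passed limma's test, and they are the highest of 19495 genes compared over 9 arrays.

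None of the genes in the other pigment pathway lists passed the test. In the list of melanosome biogenesis and transport, 0 of 27 genes passed limma's adjusted threshold, and 13 were lower and 14 higher on average (median log2 change 0.03). This median mixes genes of very different level, from percentile 2.7 of all genes for Cited1 to 93.3 for Ap3b1. Mlph, Gpr143 and Slc24a5 averaged at percentiles 4.8, 9.7 and 17.2, where differences can be understated, as for Tyr above. Of the 27, 2 were lower at an unadjusted p under 0.05, where 6.07% of all genes were. These 2 were Trpm1, a cation channel known in melanocytes, at 3.84 ± 0.32 (SD, n = 5) in stretched skin and 4.46 ± 0.21 (SD, n = 4) in non-stretched skin, and Rab38, a small GTPase that carries tyrosinase and Tyrp1 to melanosomes, at 9.12 ± 0.59 (SD, n = 5) in stretched skin and 10.01 ± 0.53 (SD, n = 4) in non-stretched skin. Their log2 changes were -0.62 and -0.89 (limma adjusted p = 0.21 and 0.26). Bloc1s5, a subunit of the BLOC-1 complex of lysosome-related organelles, had a log2 change of 0.33 (limma adjusted p = 0.42).

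Among 19 measured regulators of the melanocyte lineage, 0 passed limma's adjusted threshold (median log2 change -0.17). At an unadjusted p under 0.05, 5 were lower and 1 higher, where 6.07% of all genes were lower and 6.92% higher. Nfib, a factor of hair follicle stem cells that acts on melanocyte stem cells in mice, had a log2 change of -1.09, Tfap2b, a transcription factor of the AP-2 family, -1.08, and Sox9, a factor of hair follicle stem cells, -1.06 (limma adjusted p = 0.077, 0.19 and 0.081). Kit, the growth factor receptor of melanoblasts and mast cells, chosen here after its values were seen, differed by 0.01 on the log2 scale (95% confidence interval -0.60 to 0.62, limma adjusted p = 0.99). Melanocortin and agouti pathway genes had 0 of 10 past the adjusted threshold and 2 lower at an unadjusted p under 0.05 (median log2 change -0.11). Crebbp, a coactivator of CREB, had a log2 change of -0.33, Corin, a protease that modifies agouti signalling, -0.53, and Atrn, the attractin receptor of agouti, -0.30 (limma adjusted p = 0.38, 0.36 and 0.51).

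Among 21 skin factors known to act on melanocytes, 0 passed limma's adjusted threshold, while 4 were higher and 3 lower at an unadjusted p under 0.05 (median log2 change 0.14), where 6.92% of all genes were higher and 6.07% lower at that level. Il6, a cytokine reported to inhibit melanocytes in culture and named in the title of the series, had a log2 change of 4.19 (limma adjusted p = 0.076). Hgf, the ligand of Met, had a log2 change of 1.48 and Nrg1, a ligand of the ErbB receptors, 1.31 (limma adjusted p = 0.16 and 0.19). The differences between these lists and the 10 genes were not tested.

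In the hair follicle lists, Krt73, Cd34 and Lhx2 fell in stretched skin, of which Cd34 is also an antigen of dermal cells. Of 22 measured hair matrix and hair shaft markers, 18 were lower on average, with a median log2 change of -0.22. In this list 1 passed (0.164% of all genes called lower) and 6 were lower at an unadjusted p under 0.05 (6.07% of all genes). The genes with the smallest p were Krt73 and, chosen here after their values were seen, Krt28 and Krt25, keratins of the inner root sheath rather than of the shaft. Krt73 was at 5.16 ± 0.32 (SD, n = 5) in stretched skin and 7.12 ± 0.82 (SD, n = 4) in non-stretched skin, a log2 change of -1.96 (limma adjusted p = 0.044), Krt28 had -2.01 (0.055) and Krt25 -1.79 (0.14). The summed linear signal of the list was 618, 629, 644, 505 and 596 in stretched skin (replicates 1 to 5), against 716, 1288, 1426 and 687 in non-stretched skin (replicates 1 to 4). The groups did not overlap, and in both Dct and this sum replicate 3 was the highest and replicate 4 the lowest array of either group. The sum weights genes of high level and is not a measure of shaft keratins. Shh had the highest mean of the list, 7.28 in stretched and 7.62 in non-stretched skin. The other keratins of the list from Krt31 to Krt86, named here after their values were seen apart from those of the inner root sheath, went both ways. Log2 changes were 0.30 for Krt32, 0.29 for Krt33a and 0.17 for Krt82. They were -0.29 for Krt31, -0.30 for Krt33b, -0.11 for Krt34 and -1.04 for Krt35. For Krt36, Krt84 and Krt86 they were -0.05, -0.34 and -0.17. None of these keratins passed limma's adjusted threshold. The mean log2 level of the list also had its highest and lowest stretched arrays in replicates 3 and 4, whereas in non-stretched skin it was highest in replicate 2 (0.61 above the mean over all arrays, against 0.57 in replicate 3).

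Of 14 hair follicle stem cell markers 13 were lower on average, with a median log2 change of -0.71. In this list 2 passed (0.164% of all genes called lower) and 6 were lower at an unadjusted p under 0.05 (6.07% of all genes). Nfib and Sox9 are among these 6 and were also counted among the lineage regulators above. Lhx2, a transcription factor of the follicle stem cells, was at 4.12 ± 0.49 (SD, n = 5) in stretched skin and 6.40 ± 0.72 (SD, n = 4) in non-stretched skin (log2 change -2.28, limma adjusted p = 0.029). Cd34, at 12.20 ± 0.10 (SD, n = 5) in stretched skin and 13.81 ± 0.18 (SD, n = 4) in non-stretched skin, had a log2 change of -1.60. The part of dermal cells in the values of Cd34 was not tested. Lhx2 passed in 3 and Krt73 in 2 of the 9 fits that left out 1 array (limma adjusted p up to 0.12 and 0.14). The summed linear signal of this list overlapped, from 68552 to 171345 in stretched skin and from 121638 to 158856 in non-stretched skin. This sum mostly follows Postn, by far the highest gene of the list (mean 16.12 in stretched and 16.74 in non-stretched skin). It therefore says little about the other markers. Dermal papilla markers were lower for 6 of 13 and higher for 7, none past limma's adjusted threshold (median log2 change 0.0042). At an unadjusted p under 0.05, 2 of these markers were lower and 3 higher, against 6.07% and 6.92% of all genes. Their members with the smallest p, Fgf7, Crabp1 and Wif1, had log2 changes of 1.81, 1.54 and -1.04 (limma adjusted p = 0.12, 0.15 and 0.19). The part of the hair follicle genes in the values of Dct and Pmel was not tested.

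**Figure D5:**
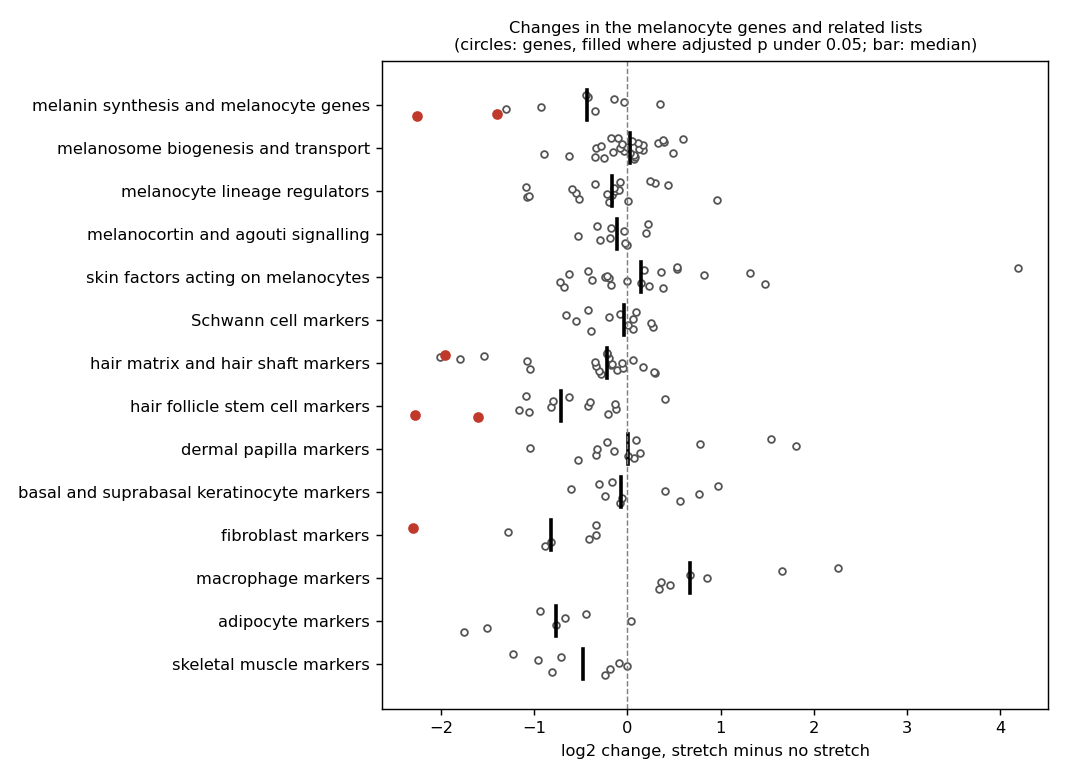
Log2 change, stretch minus no stretch (horizontal), of each measured gene in the melanocyte set and the 13 related lists (rows); circles are genes, filled where the adjusted p is under 0.05, and bars are list medians. The medians are -0.44 for the melanocyte genes, -0.71 for hair follicle stem cell markers and 0.03 for melanosome biogenesis and transport.

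Markers of other skin cells were summarised in the same way. Over all genes, 6.07% were lower and 6.92% higher at an unadjusted p under 0.05. Keratinocyte markers were lower for 6 of 10 and higher for 4, with 0 past limma's adjusted threshold, 3 higher at an unadjusted p under 0.05 (Dsg3, Itga6 and Krt14) and a median log2 change of -0.07. Fibroblast markers were lower for 7 of 7, with a median of -0.82, and 4 were lower at an unadjusted p under 0.05. Of these markers Dpt passed (log2 change -2.30, limma adjusted p = 0.025, and past the threshold in 5 of the 9 fits that left out 1 array). Their summed linear signal did not overlap, from 510261 to 929085 in stretched skin and from 949168 to 1225495 in non-stretched skin. This sum mostly follows Dcn and Col3a1, the highest genes of the list, with log2 changes of -0.34 and -0.41 (limma adjusted p = 0.53 and 0.47). Adipocyte markers were lower for 6 of 7 and skeletal muscle markers for 8 of 8, with medians of -0.76 and -0.47 and 0 past limma's adjusted threshold (5 and 0 at an unadjusted p under 0.05). No marker in any of these lists was listed at 0, but genes of low value on these arrays also lay above 0, so this does not show detection. The part of these cell types in the melanocyte values was not tested.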

How the data were processed

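Log2 expression values of 22206 features on 9 arrays were used as deposited by the authors. RMA and Transcriptome Analysis Console are named for these deposited log2 values in the submitters' processing notes, with no versions; the genome build is not given in the sources used here. Per the labels' protocols, total RNA from skin was made into biotinylated cRNA. The 19572 features with 1 symbol gave 19505 genes, the feature of highest mean being used for the 55 genes with several.

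Groups were taken from sample titles. Stretch minus no stretch was fitted in R 4.3.3 with limma 3.58.1 (lmFit, then eBayes; two-sided, without covariates), with Benjamini-Hochberg adjustment over all genes, and was tested on simulated data. Correlations used all 2880 permutations of arrays within groups. A summed linear signal is the sum of 2 to the power of each log2 value.

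The 10 genes and the 13 lists (177 of 190 entries measured; the others were not analysed here) were chosen with earlier results of these data known. Some genes occur in several lists. Named list genes are those past the threshold or otherwise the 3 of smallest p; exceptions are marked in the text. Named neighbours are the 10 and 5 highest correlations, passing over predicted genes. Alternatives covered normalization, filtering, variance models, weights, the replicate number as a block and leaving out arrays. Promoter windows came from RefSeq.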

Additional observations from a re-analysis of the deposited data

Results flagged for a closer look

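Slc45a2 in stretch replicate 5 was at 3.129, whereas the other 4 stretched arrays lay between 3.64 and 3.72. Its gap to the nearest of them was 0.865 of the whole range of the group, above Dixon's critical value for 5 samples. It was the single value of this kind in 20 groups examined (10 genes in 2 groups), and chance flags about 1 group in 20.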

How the results depend on the processing

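Dct and Pmel kept their direction under every alternative run, and both stayed past the threshold after quantile normalization, median centring, averaging of features, the filter on dim genes, both variance models, array weights and a fit on all features. The median log2 change of the 10 genes was -0.44, and it was -1.301 when dim genes were left out, because that filter keeps 5 of the 10. The count of genes called, 48, became 105 with that filter, 157 with array weights (with Tyrp1 called, limma adjusted p = 0.039), 211 at an adjusted p of 0.1 and 15 without the 2 arrays of lowest weight, an omission chosen after seeing the data, which left 0 of the 10 genes called. The 4 genes called in related lists became 8 with array weights, 11 at an adjusted p of 0.1 and 2 without those 2 arrays. Leaving out single arrays moved the count over all genes between 2 and 195, that of the 10 genes between 0 and 2, and that of the related lists between 1 and 10. Oca2 (-0.03) turned to 0.037 after median centring and to 0.028 with the replicate block, and ranged from -0.14 to 0.063 over the single omissions. With the replicate number as a block, 221 genes were called, 11 of them in the related lists, and Tyrp1 passed (limma adjusted p = 0.046). Stretch replicate 5 has no same-numbered no stretch array and adds nothing to the change in that fit. The changes therefore equal those without it (-2.159 for Dct and -1.432 for Tyrp1). The labels do not say that the numbers pair samples, and same-numbered samples deviated together only for replicate 4 (r = -0.062, -0.018, 0.064 and 0.34 for replicates 1 to 4, across genes). No pair of genes was called under any alternative of the correlations. Array signal over background was not available, so precision for the 5 genes of low value is unknown.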

Other observations

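Genes outside the set that carry the same promoter motifs are given as values. Of all 15691 tested genes with a RefSeq promoter window, 50.3% were lower in stretched skin on average, 5.84% were lower and 6.72% higher at an unadjusted p under 0.05, and the median log2 change was -0.0025. Outside the set, 37 held TCATGTGCT on either strand, and 26 of these 37 (70.3%) were lower on average, with a median log2 change of -0.18. Pigment genes that are not in the set were not removed from these counts. None of the 37 passed limma's adjusted threshold, while 4 were lower (10.8%) and 1 higher (2.7%) at an unadjusted p under 0.05. For the shorter TCATGTG, 292 of 548 other genes (53.3%) were lower, with a median log2 change of -0.02, 0 called lower and 1 called higher by limma, and 21 lower (3.83%) and 39 higher (7.12%) at an unadjusted p under 0.05. For CATGTG, 1113 of 2042 other genes (54.5%) were lower, with a median log2 change of -0.03, and for CACGTG 668 of 1453 (46.0%), with a median of 0.03. The genes with TCATGTGCT were not tested against the other genes. Dct, Tyrp1 and Tyr, which share it, had log2 changes of -2.25, -1.30 and -0.35.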
